A study of Mus musculus with 4 samples.

Results

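The 10 genes described here encode core parts of the Polycomb repressive complexes PRC1 and PRC2, and were taken by symbol from the probe set annotation of the expression array, out of 18194 genes measured. Ezh1, Ezh2, Eed, Suz12 and Jarid2 belong to PRC2, and Ring1, Rnf2, Bmi1, Cbx2 and Cbx7 to PRC1. All 10 were found, with 29 probe sets between them, of which 18 passed a signal of 100 in some population. Expression was profiled in 4 cell populations sorted on day 6 of ES cell differentiation on OP9 stromal cells, with 1 Affymetrix array each. Population 1 was gated as Runx1-/VE-cadherin+/Flk1+, population 2 as Runx1+/VE-cadherin+/CD41-, population 3 as Runx1+/VE-cadherin+/CD41+ and population 4 as Runx1+/VE-cadherin-/CD41+. All 4 came from the Runx1(Venus/+) line, made from CCE ES cells, in which the fluorescent Venus gene reads out the proximal P2 promoter on 1 Runx1 allele, so every population was heterozygous for Runx1 and no wild-type cells were among them. No treatment beyond the culture was given. A further set of these populations, which the study hybridised to Agilent arrays, was not analysed here. With 1 array a population in the data used, there is no replicate check, no test and no error between populations, and the values below describe these 4 arrays. Because each array holds RNA of a sorted mixture, fewer expressing cells and less transcript per cell cannot be told apart.

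Polycomb complexes keep developmental genes silent by marking their chromatin. PRC2 methylates histone H3 on the lysine known as H3K27, through either of the alternative enzymes EZH1 and EZH2, with SUZ12 as scaffold and EED as the subunit that reads the finished mark. PRC1 attaches ubiquitin to histone H2A through the ligases RING1 or RNF2, paired with a PCGF protein such as BMI1, and CBX proteins such as CBX2 and CBX7 bind it to methylated H3. In blood formation, Ezh2 is typical of dividing progenitors while Ezh1 persists in cells that divide little, and Bmi1 is known for keeping the cell cycle inhibitor locus Cdkn2a silent in haematopoietic stem cells.

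RefSeq promoter sequences of assembly GRCm38.p6, from 250 bases before to 50 bases after the transcription start, were at hand for 9 of the 10 genes (10 promoters, since Jarid2 has 2). The motifs were chosen after the values were seen, when Ezh2 had the largest difference of the 10 genes between populations 1 and 2. That the populations were sorted on Runx1 was a further reason. Whether any motif bears on expression was not tested. Short stretches around 2 kinds of motif are printed below with the motif in capitals. The first is the E2F motif, searched as TTTCGCGC or TTTGGCGC on both strands, and the second the RUNX motif, searched as TGTGGT or TGCGGT on both strands. Positions count from 1 at the transcription start of the promoter, negative before it, and mark the motif's first base in the direction of the gene. For Ezh2, Cbx7 and the second Jarid2 promoter this start lay inside the annotated gene. The annotated Ezh2 gene begins upstream at chr6:47595270, so its E2F match and its RUNX match at -217 lie within the gene.
Ezh2, E2F motif at position 4, chr6:47595009-47595038, minus strand: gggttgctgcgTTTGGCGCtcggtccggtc
Ezh2, RUNX motif at position -217, chr6:47595230-47595259, minus strand: aaagacagcgacTGTGGTgcttccacccag
Ezh2, RUNX motif on the opposite strand at position -250, chr6:47595251-47595280, minus strand: ACCGCAcgttggcaaaagaacaaagacagc
Ezh1, RUNX motif on the opposite strand at position -66, chr11:101226512-101226541, minus strand: acacctgcgaagACCGCAgcccaggtgatc
Jarid2, RUNX motif on the opposite strand at position -196, chr13:44730566-44730595, plus strand: cctcgctcccggACCACAcgctccgcgggc

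The E2F motif was present in 1 of the 10 promoters, that of Ezh2, and in 0.813% of all 32851 promoters of the same length. The RUNX motif was present in 3 of the 10 promoters, from 3 different genes, and in 22.4% of all promoters. The GATA motif, searched as AGATAA or TGATAA on both strands, was found in 0 of the 10 promoters and in 18.6% of all. CpG dinucleotides numbered between 17 (Eed) and 41 (Suz12) in the 10 promoters, against a median of 7 over all promoters, and the 41 of Suz12 exceeded 96.5% of them. TTTCGCGC, TTTGGCGC and TGCGGT contain CpG themselves, and the shares over all promoters were not matched for CpG number. The E2F share is thus no measure of how rare the Ezh2 match is among promoters with similar CpG number. A motif match describes letters in this window and is not a measured binding site.

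The transcripts of the sorted proteins followed the gates, except that Itga2b was also well above 100 in the CD41- population. Runx1 had signals of 55.3, 358, 1297 and 2440.2 in populations 1 to 4, the VE-cadherin gene Cdh5 5683, 3946, 4849 and 40.9, the Flk1 gene Kdr 5866, 4496, 4835 and 906, and the CD41 gene Itga2b 667, 1135, 2418 and 1610. The summed signal of 10 endothelial marker genes was 20489 to 30196 in populations 1 to 3 and 2154 in population 4, and that of 9 erythroid markers 283 to 5027 against 51173. Of 10 markers of undifferentiated ES cells, only Klf4, which endothelium also expresses, had a signal above 100, and Pou5f1 lay at 30.3 or less. The sum over 9 stromal markers, the kind of cell in the OP9 layer, was 3366, 2040 and 1836 in populations 1 to 3 and 1503 in population 4, with Col1a2 at 1988 in population 1 and Dcn at or below 14.8 throughout. The scaling between arrays is not stated. Over the 9468 genes that passed a signal of 100 in any population, the median log2 ratio was 0.00 from population 1 to 2, 0.22 from 2 to 3, 0.06 from 3 to 4 and 0.36 from 1 to 4, so ratios are read against these medians.

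All log2 ratios are differences of log2 signals, with signals under 100 raised to 100, from the brightest probe set of a gene unless stated. Of the 10 Polycomb genes, 2 (Ezh2 and Suz12) were higher by 2-fold or more in population 4 against population 1, where 22.4% of all 9468 genes were, and 1 (Ezh1) was lower by 2-fold or more, where 12.9% of all genes were. The split over all genes depended on the scaling, with 14.2% higher and 15.8% lower once arrays were centred on their medians, and 34% and 10.5% scaled on the hybridisation controls. From population 3 to 4, 1 gene (Suz12) was higher by 2-fold or more, against 7.94% of all genes, and 1 (Ezh1) lower by 2-fold or more, against 12.2%. From population 1 to 2, 0 of 10 were higher and 0 lower by 2-fold or more, where 2.92% and 4.19% of all genes were. From population 2 to 3 the counts were again 0 and 0, against 3.11% and 0.253% of all genes. Read against these rates, the counts do not set the 10 genes apart. The median log2 ratio of the 10 genes was 0.03 from population 1 to 2, 0.23 from 2 to 3, 0.10 from 3 to 4 and 0.53 from 1 to 4, against 0.00, 0.22, 0.06 and 0.36 over all genes. With the mean over probe sets above 100, the medians from population 1 to 4 were 0.42 for the 10 genes and 0.36 for all. Of the 10 genes, 5 lay above the median of all genes from population 1 to 4, and 5 below it.

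**Figure D1:**
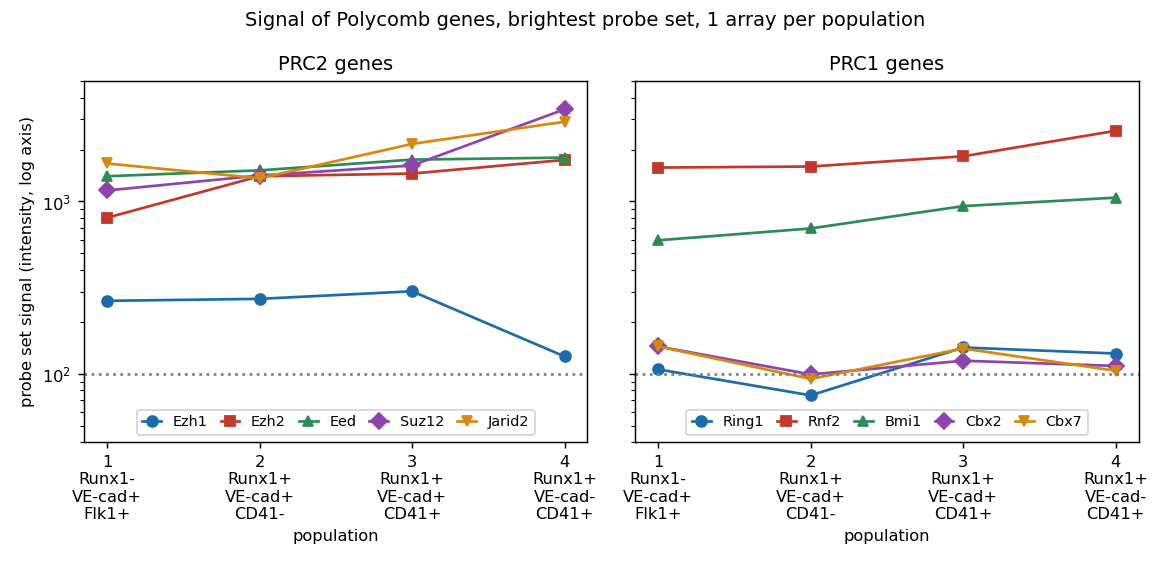
Signal (intensity, log axis) of the brightest probe set of 5 PRC2 genes (left) and 5 PRC1 genes (right) in populations 1 to 4, with 1 array per population and so no error bars; the dotted line marks a signal of 100. Levels of different genes cannot be compared, but within a gene Suz12 reaches 3427 in population 4 and Ezh1 drops to 126 there.

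The catalytic genes of PRC2 went opposite ways. Ezh2 had signals of 804, 1401, 1452 and 1742 in populations 1 to 4, by its only probe set. Its lowest value was thus in the Runx1-negative endothelial population, and the 3 Runx1-positive populations lay close together. The difference sat at the first step, where Ezh2 was 1.74-fold higher in population 2 than in population 1 (log2 ratio 0.80), more than 94.4% of all genes. The log2 ratio was 0.05 from population 2 to 3, and Ezh2 was higher by 0.26 on the log2 scale from 3 to 4. Population 4 exceeded population 1 by 2.17-fold (1.12), or by 0.82 and 0.85 on the log2 scale after centring on the array median and after quantile normalisation, which fall short of 2-fold.

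Ezh1 had signals of 265, 272, 301 and 126. Populations 1 to 3 were alike and population 4 stood below them, with a log2 ratio of 0.04 at the first step, 0.15 at the second and -1.26 from population 3 to 4, where 9.63% of all genes had a lower ratio. Against population 1, population 4 was 2.11-fold lower (-1.07). A second Ezh1 probe set, with 53.4, 56.3, 51.4 and 32.7, was also lowest in population 4 but stayed below 100, and the other 2 lay at 17.0 or less. The Ezh1 difference therefore rests on 1 probe set, one of the kind (_a_at) that recognises several transcripts of the gene. Without such probe sets, or with the mean over all 4, Ezh1 lay under the floor of 100 in every population and gave no ratio, and with signals raised to 200 the log2 ratio of population 4 over 1 was -0.41. Scaled on the hybridisation controls it was -0.76.

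The other 2 core subunits differed from each other. Suz12, the scaffold, had signals of 1158, 1414, 1617 and 3427 in populations 1 to 4. Population 4 stood well above the other 3, which differed less among themselves. Its log2 ratio was 0.29 and 0.19 at the first and second steps and 1.08 from population 3 to 4 (2.12-fold), more than 93.5% of all genes, and 1.57 from population 1 to 4 (2.96-fold). Of its 6 probe sets, 5 passed a signal of 100, and their log2 ratios of population 4 over 1 were 1.14, 1.31, 1.44, 1.57 and 1.80. The sixth had 20.8, 46.1, 58.6 and 87.5, in the same order. Under the 5 scalings tried besides the deposited one, the Suz12 ratio of population 4 over 1 was between 1.27 and 1.88, above 2-fold in each.

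Eed, the subunit that binds trimethylated H3K27, had signals of 1401, 1515, 1749 and 1797. The 4 values were close, with a ratio of population 4 over 1 of 0.36 on the log2 scale, the same as the median of all genes, and its second probe set did not exceed 17.0. Eed thus neither followed the jump of Suz12 in population 4 nor that of Ezh2 in population 2.

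Jarid2 encodes a cofactor that helps to bring PRC2 to its sites and was first known for roles in heart and neural development. It had signals of 1661, 1363, 2157 and 2902, the lowest in population 2. Its log2 ratio was -0.29 from population 1 to 2, 0.66 from 2 to 3, more than 89.5% of all genes, and 0.43 from 3 to 4. All 3 of its probe sets had this order, with values of 1044, 854, 1276 and 1689 for the second and 424, 395, 560.3 and 671 for the third. Population 4 over 1 gave 0.80, 0.69 and 0.66, under 2-fold by every probe set on the deposited scale. Scaled on the hybridisation controls, it passed 2-fold both from population 2 to 3 (1.07) and from population 1 to 4 (1.12).

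**Figure D2:**
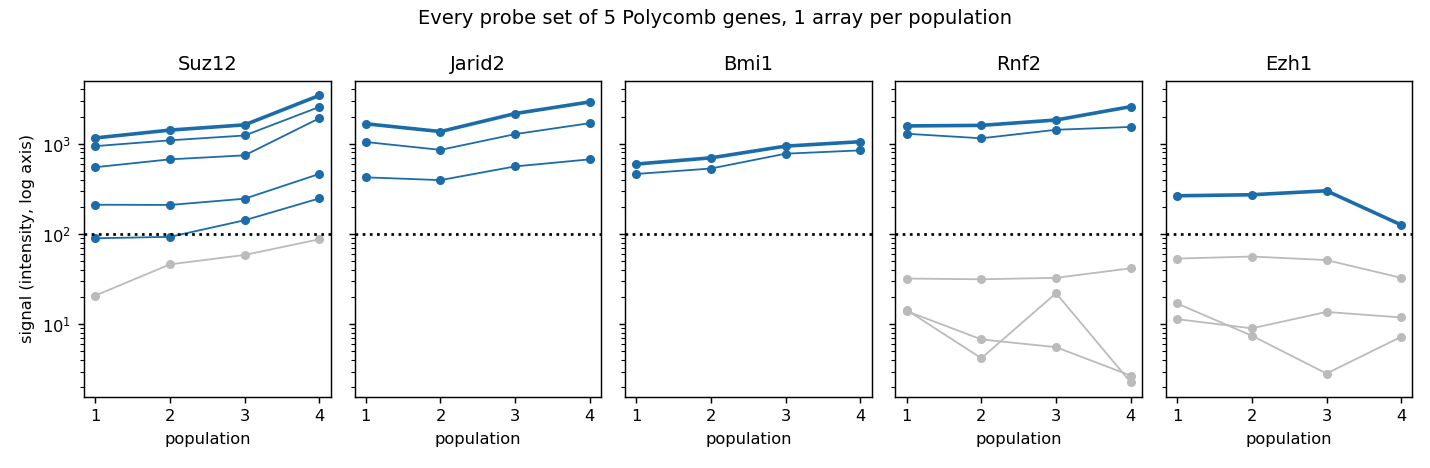
Signal (intensity, log axis) of every probe set of Suz12, Jarid2, Bmi1, Rnf2 and Ezh1 in populations 1 to 4, 1 array each; blue lines passed 100 (dotted) in at least 1 population, grey lines did not, and the thick line is the brightest. The 5 blue Suz12 lines turn up together in population 4, while Ezh1 has a single blue line, which falls from 301 to 126.

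Among PRC1 genes, the ligase gene Rnf2 had signals of 1573, 1595, 1829 and 2573 by its brightest probe set. Its values were flat over populations 1 and 2 and highest in population 4, with a log2 ratio of 0.49 from population 3 to 4 and 0.71 from 1 to 4. Its second bright probe set read 1288, 1148, 1426 and 1533, which gave 0.10 from 3 to 4 and 0.25 from 1 to 4, below the median of all genes, and the mean over both gave 0.48. The probe sets of Rnf2 thus disagreed on the size of the difference, and at the first step on its direction, with 0.02 and -0.17. A further 3 probe sets stayed at 41.7 or less. Ring1, the alternative ligase gene, was dim, with 106, 74.9, 142 and 131. It was lowest in population 2, below the floor of 100 there, and its log2 ratio of population 3 over 2 was at least 0.51, against 0.30 from population 1 to 4.

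Bmi1, the PCGF subunit of canonical PRC1, had signals of 595, 697, 940.0 and 1052. Each population was higher than the one before, and the second probe set gave the same order with 462, 531, 775 and 843. From population 2 to 3 the log2 ratios were 0.43 and 0.54 by the 2 probe sets. Relative to the medians of all genes, the 3 steps of the brighter one were 0.23, 0.21 and 0.10, and its ratio of population 4 over 1 was 0.46. Without subtraction of the median, population 4 exceeded population 1 by 0.82 and 0.87 by the 2 probe sets. In all, 5 of the 10 genes (Ezh2, Eed, Suz12, Rnf2 and Bmi1) were higher at every step on the deposited scale, where 24.5% of all genes were. For Rnf2 the first step was only 0.02. Scaled on the hybridisation controls or with the mean over probe sets above 100, Rnf2 was no longer among them (28.1% and 24.5% of all genes). After centring on the array median, after quantile normalisation or scaled on the poly-A controls, only Bmi1 was higher at every step, against 8.34%, 10.2% and 8% of all genes. Its log2 ratio from population 2 to 3 was then small, at 0.12, 0.14 and 0.01.

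The chromodomain genes Cbx2 and Cbx7 lay near the floor in all 4 populations. Cbx2 had 144, 99.1, 119 and 111, and Cbx7 had 144, 93.3, 140.1 and 104, by the 1 probe set of each that passed 100. Both were highest in population 1 and lowest in population 2, at least 1.44-fold lower at that step, and both had negative log2 ratios of population 4 over 1, -0.38 and -0.48. The other probe sets of the 2 genes read 22.1 or less. At such low signals the array gives little room to see a difference in either direction.

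**Figure D3:**
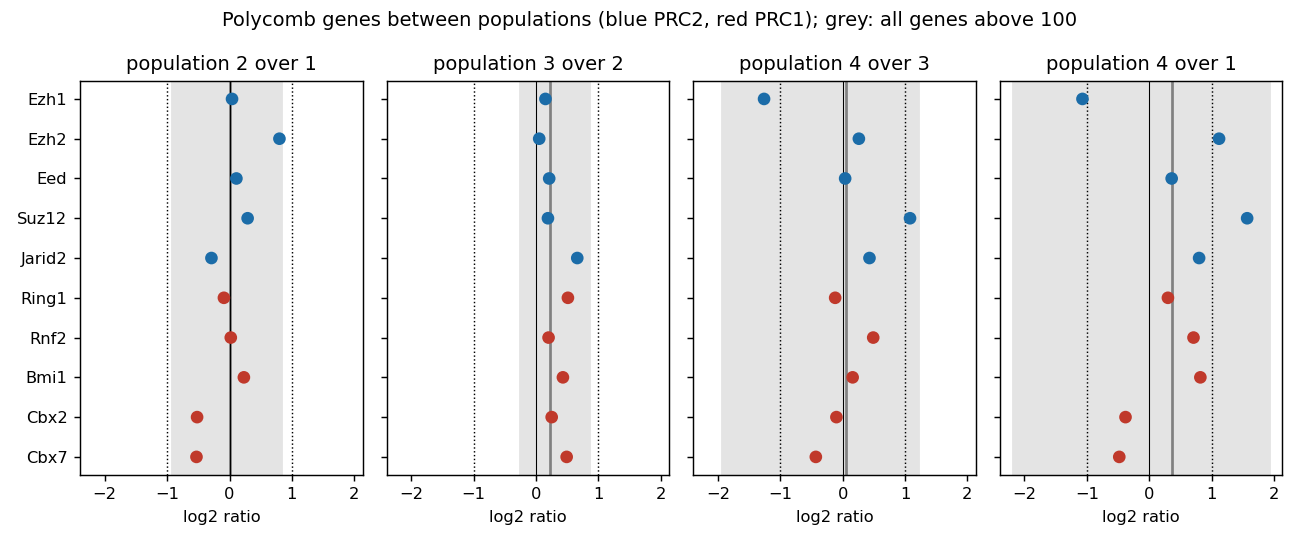
Log2 ratio of each of the 10 genes (blue PRC2, red PRC1) for population 2 over 1, 3 over 2, 4 over 3 and 4 over 1, 1 array per population. The grey line is the median and the grey band the central 90% of the 9468 genes with a signal above 100, and dotted lines mark 2-fold; every gene lies inside the band, with Ezh1 at -1.07 and Suz12 at 1.57 for population 4 over 1.

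Because a shift shared by an array cancels between 2 genes on it, the ratios of paralogs were set against each other. The Ezh2 ratio exceeded the Ezh1 ratio by 0.76 on the log2 scale from population 1 to 2, by -0.09 from 2 to 3, and by 1.52 from 3 to 4. Over all, from population 1 to 4, the balance of Ezh2 to Ezh1 moved by 2.19 (4.56-fold). The first part came from higher Ezh2 and the last mostly from lower Ezh1. With signals raised to 200 the move from population 1 to 4 was 1.52 and that from 3 to 4 was 0.85. With the other Ezh1 probe sets no balance could be read, since they lay under the floor. For Rnf2 and Ring1 the difference from population 1 to 4 was 0.41, and for Cbx2 and Cbx7 0.10, both under 2-fold. No error can be given for these differences.

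The genes with profiles closest to the 3 members of largest range were found by the distance between log2 signals over the 4 arrays, each centred on its own mean, among 7097 genes with a signal of at least 100 in every population. Closest to Suz12 were Lin9 (distance 0.050), Rfxap (0.062) and Uhrf1bp1 (0.067), where Lin9 encodes a subunit of a cell cycle transcription complex and had signals of 190.4, 242, 277 and 585. Ezh1 was closest to Nckap1 (0.029), an actin regulator with 3574, 3582, 4068 and 1679, followed by Rbms1 (0.038) and Impdh1 (0.049). Ezh2 was closest to Anp32a (0.049), Parn (0.049) and Fdps (0.051), the last with 3359, 5805, 5864 and 6974. Within a distance of 0.25 lay 166 genes for Suz12, 76 for Ezh1 and 219 for Ezh2 of these 7097.

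Genes of cell proliferation were set beside the PRC2 genes. Of the steps at which the proliferation genes were higher, Ezh2 and Suz12 each came near them at 1 only. Of 23 cell cycle genes above 100, 14 were higher by 2-fold or more in population 2 than in population 1, against 2.92% of all genes. The count was 0 in population 3 against 2 (3.11% of all genes) and 14 in population 4 against 3 (7.94%). All 23 were higher by 2-fold or more in population 4 than in 1, against 22.4% of all genes. Aurkb, a mitotic kinase, had signals of 111, 485, 516 and 1402, and Cdc6, which loads the replicative helicase, 245, 695, 575 and 1885. The list's median log2 ratio was 1.17, -0.13 and 1.21 at the 3 steps, beside 0.80, 0.05 and 0.26 for Ezh2, 0.29, 0.19 and 1.08 for Suz12, and 0.11, 0.21 and 0.04 for Eed. Ezh2 followed the list at the first step and lay below it at the last, and Suz12 the reverse. Ezh1 was 2.39-fold lower at the last step. There, 10 of 10 endothelial markers were lower by 2-fold or more, against 12.2% of all genes. At the same step 9 of 9 erythroid markers were higher by 2-fold or more, against 7.94%. The part of cell cycle or of cell type in these differences was not tested.

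**Figure D4:**
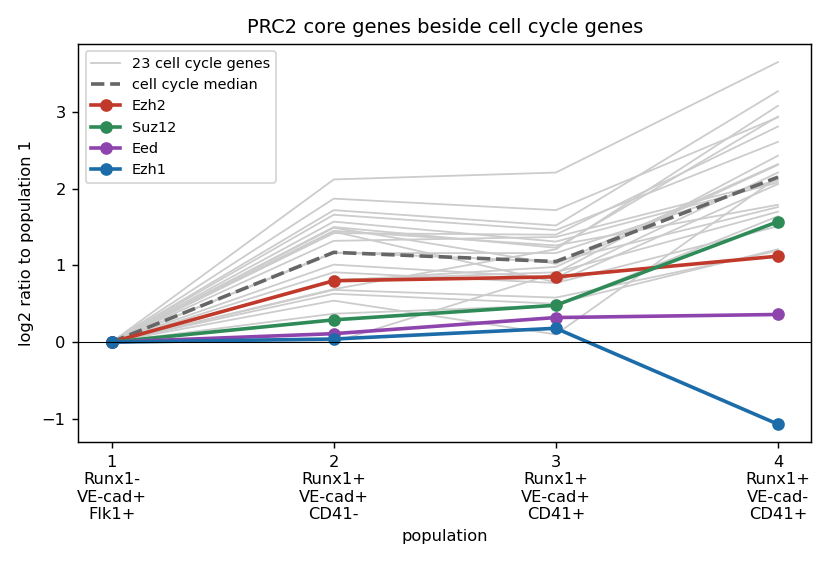
Log2 ratio to population 1 of Ezh2, Suz12, Eed and Ezh1 beside 23 cell cycle genes (thin grey lines, dashed median), 1 array per population. The cell cycle median steps up by 1.17 in population 2 and again in population 4, while Ezh2 steps up by 0.80 in population 2 and Suz12 by 1.08 from population 3 to 4.

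The remaining PRC2 genes stayed under 2-fold by their brightest probe sets. Counts for these further lists hold for the deposited scale, and the median of all genes from population 1 to 4 was 0.10 after centring on the array median and 0.64 scaled on the hybridisation controls. Of 7 listed, 5 had a signal above 100. In population 4 against 1, 0 of these were higher and 0 lower by 2-fold or more, against 22.4% and 12.9% of all genes. Their median ratio was 0.65 on the log2 scale. Rbbp4, a histone-binding subunit shared with other complexes, had 4533, 5722, 5767 and 7477 (0.72), and its other 3 probe sets gave 0.90, 1.05 and 1.10, of which the last 2 pass 2-fold. The Polycomb-like genes Mtf2 and Phf1, whose products bind PRC2 to chromatin, gave 0.65 and at least 0.71, and Aebp2, a cofactor, 0.42. A dimmer Mtf2 probe set, with 294, 404, 479.7 and 619, passed 2-fold at 1.07.

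Subunits of PRC1 beyond the 10 genes were called about as often as all genes. Of 21 listed, 19 were measured and 15 passed 100. In population 4 against 1, 3 of these 15 were higher by 2-fold or more, where 22.4% of all genes were, and 2 lower, where 12.9% were, with a median of 0.36, the same as over all genes. L3mbtl2, of a variant PRC1, had signals of 74.3, 139, 124 and 343, at least 3.43-fold higher. Pcgf6, another variant subunit, had 222, 372, 324 and 551 (2.49-fold), and the polyhomeotic gene Phc3 177, 146, 188 and 356 (2.01-fold). Its relative Phc2 went the other way, with 1963, 1769, 2046 and 908, 2.16-fold lower, and -1.15 by its second probe set. Auts2, of a variant PRC1 with Pcgf5 or Pcgf3, had 1373, 1416, 2014 and 531, 2.59-fold lower. Pcgf5 itself had 1927, 3600.1, 3246 and 1314, highest in populations 2 and 3 and 2.47-fold lower in population 4 than in population 3. From population 3 to 4, 3 of the 15 (Auts2, Phc2 and Pcgf5) were lower by 2-fold or more, against 12.2% of all genes. In the other direction 1 of the 15, L3mbtl2 (1.47), was higher by 2-fold or more, against 7.94%. Phc3 (0.92) and Pcgf6 (0.77) were higher by less. E2f6 gave 0.73 from population 1 to 4, Bcor 0.58 and Scmh1 -0.54.

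Enzymes that counteract or balance Polycomb were also read. The H3K27 demethylase genes Kdm6a and Kdm6b gave log2 ratios of 0.39 and -0.36 from population 1 to 4, and Kdm6b had 1871, 1866, 2352 and 1463, lowest in population 4. Of 9 PR-DUB genes, whose complex removes ubiquitin from H2A, 1 was higher by 2-fold or more, against 22.4% of all genes. None of them, 0 of 9, was lower, against 12.9%. The higher gene was Asxl2, with 284, 237, 349.7 and 576, whose second probe set gave 0.45 in place of 1.02. The deubiquitinase gene Bap1 gave 0.43, Hcfc1 0.96, Foxk2 0.63 and Ogt 0.51. Of 13 genes of the trithorax MLL complexes, which methylate H3 on another lysine and oppose Polycomb, 3 were higher by 2-fold or more, against 22.4% of all genes, and 0 lower, against 12.9%. Those higher were Dpy30 (829, 1644, 1590.3 and 2993), Rbbp5 (217, 374, 400.4 and 701) and Paxip1 (324, 446, 513 and 971), which encode subunits without catalytic activity. Wdr5 and Ash2l, further shared subunits, gave 0.93 and 0.72. A dimmer Wdr5 probe set, with 117, 193, 137 and 366, passed 2-fold at 1.64. The 6 methyltransferase genes of these complexes lay between -0.17 and 0.54 by their brightest probe sets, with 1.06 by a second probe set of Setd1b.

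**Figure D5:**
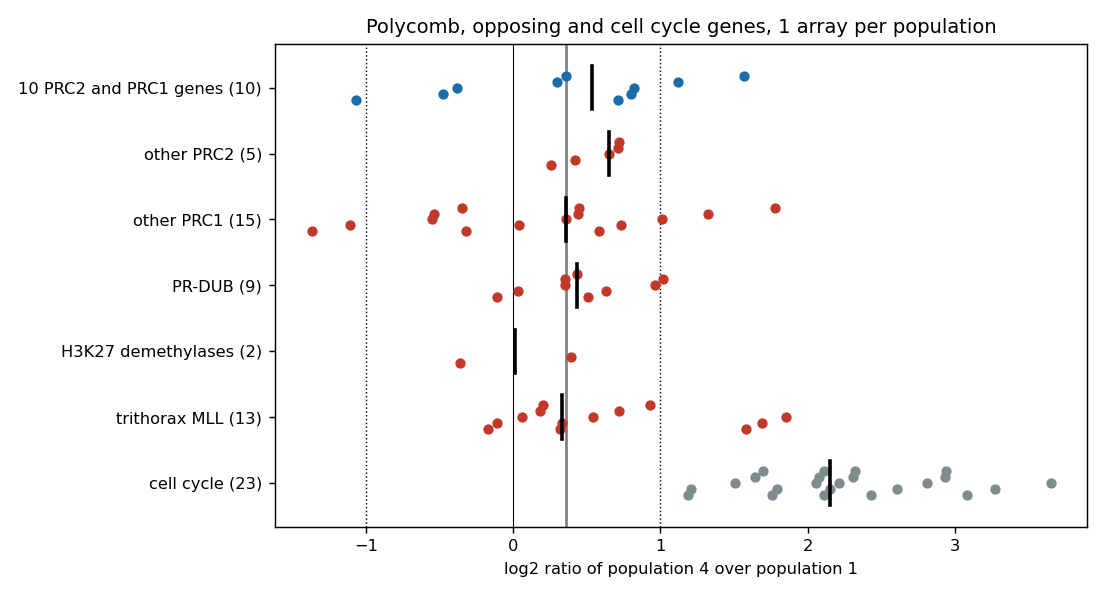
Log2 ratio of population 4 over population 1 for genes with a signal above 100 in 7 lists (number in brackets), 1 array per population; each point is a gene, the black bar the median of its list, the grey line the median of all genes (0.36), and dotted lines mark 2-fold. The 10 Polycomb genes scatter from -1.07 to 1.57 around a median of 0.53, whereas all 23 cell cycle genes lie beyond 2-fold.

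Genes that textbooks give as Polycomb targets were mostly dark. Of 30 listed, 26 were measured and 21 of these had no signal above 100 in any population. Over all genes, 9468 of 18194 had a signal above 100, so many genes outside the list were dark too. Among the 21 were the neural genes Sox1, at 3.75 or less, and Olig2, at 1.59 or less. Whether Polycomb keeps them dark here was not tested. Of the 5 above 100, Gata6, a factor of endoderm and heart, had 822, 725, 554 and 51.4, at least 8.22-fold lower in population 4 relative to population 1. Bmp2 had 602, 1953, 4141 and 1802, highest in population 3, with a log2 ratio of 1.58 from population 1 to 4. The cell cycle inhibitor gene Cdkn2b had 199.5, 75.9, 102 and 46.9, and Cdkn2a, at the locus that Bmi1 is known to silence, 223, 137, 272 and 208, with its lowest value in population 2 and no single direction beside the order of Bmi1. Msx1 gave -0.18 from population 1 to 4.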

How the data were processed

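RNA of 4 sorted populations was hybridised to Affymetrix Mouse Genome arrays, 1 per population. Linear intensity values, 1 per probe set and array, were deposited, and per the labels MAS5 and GCOS 1.3 were used. Scaling target and detection calls are not given in the sources used here. The number of arrays limits the precision.

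Of 45101 probe sets, 34958 had 1 gene symbol, 932 several and 9211 none, and only the first were used. Symbols were updated by Entrez ID through gene records of GRCm38.p6 (34754 matched). Each of 18194 genes was represented by its brightest probe set (mean log2 over the 4 arrays). Signals below 100 were raised to 100, which makes ratios that involve them lower bounds. Genes above 100 in at least 1 population formed the background, and 2-fold was the limit for counting.

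The members and lists were chosen with earlier results of these data known. All 10 genes, sort markers, Polycomb-related genes at least 2-fold different between populations 4 and 1, up to 4 others per list and the 3 nearest profiles of 3 members are named. Marker genes with values, Sox1, Olig2, and the range over methyltransferase genes were chosen after their values were seen, as were the motifs. Alternatives covered scaling, probe set choice, floor and fold, and scaling on poly-A controls and the mean over probe sets above 100 were chosen after seeing the data. Python 3.11.15, pandas 2.3.3, numpy 2.4.6 and matplotlib 3.10.9 were used, and the computation was tested on simulated data.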

Additional observations from a re-analysis of the deposited data

How the results depend on the processing

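From population 1 to 4, the direction on the deposited scale was kept under the 5 other scalings, except for Ring1 at 0.00 after centring, and 454 of 550 ratios over all comparisons and alternatives kept their direction and their side of 2-fold. Of the others, 38 under 2-fold became 0.00, 10 dropped under 2-fold, 5 passed it, 43 under 2-fold changed sign, and 0 beyond 2-fold did. The count of genes higher by 2-fold or more in population 4 against 1 (2) was 1 after centring on the array median or quantile normalisation (14.2% and 15.1% of all genes), 5 scaled on the hybridisation controls (34%), and 5 at a limit of 1.5-fold (39.6%). The count at least 2-fold lower (1, Ezh1) was 0 with the mean over probe sets, with signals raised to 200, without probe sets ending in _s_at, _x_at or _a_at, or scaled on the hybridisation controls. From population 3 to 4, both counts (1 and 1) were 0 with the mean over probe sets, and the lower one also 0 with signals raised to 200 or without those probe sets. At a limit of 1.5-fold, 1 gene was higher from population 1 to 2 (11% of all genes) and 1 from 2 to 3 (14.7%). At 2-fold, 1 gene, Jarid2, was higher from 2 to 3 scaled on the hybridisation controls (13.6%). Genes higher at every step (5) numbered 1 after centring, quantile normalisation or poly-A scaling, and 3 scaled on housekeeping genes (10 of the 12 listed were measured) or with the mean over probe sets. They numbered 4, without Rnf2, scaled on the hybridisation controls or with the mean over probe sets above 100. Rnf2 minus Ring1 from population 1 to 4 was -0.38 with the mean over probe sets, a value set by dark probe sets that bring the Rnf2 mean to the floor, and 0.18 with the mean over probe sets above 100. The mean over all probe sets likewise puts Ezh1, Cbx2 and Cbx7 under the floor and says nothing about them, while the mean over those above 100 moved 0 of the counts at 2-fold. Apart from fewer probe sets or a higher floor, the causes were not tested. Signals near 100, as for Ring1, Cbx2 and Cbx7, limit what can be seen. No paired analysis was possible because each population has 1 array.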
